A study of Mus musculus with 12 samples.

Results

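The oligoadenylate synthetase family is described here by 9 of the 21958 genes in a table of read counts from mouse bone marrow, namely Oas1a, Oas1b, Oas1c, Oas1g, Oas1h, Oas2, Oas3, Oasl1 and Oasl2. The 9 genes were taken by name, and the family was picked with the counts of all 12 samples in view, so every difference between groups below is a description and carries no test. Poly(A)-selected RNA from bone marrow cells of WT mice was sequenced in 12 libraries, 4 in each group. The cornus group was given self-assembled nanoparticles made from Cornus officinalis, an Asian dogwood. In the model group bone marrow output was suppressed with CTX, an abbreviation that the labels leave unexplained in a study of chemotherapy, and the control group had no treatment. Whether cornus mice received CTX as well is not in the labels, and strain, sex, age, doses and sampling times are not given in the sources used here. They are named biological replicates in the series' design without a statement that each came from its own animal, so the errors below measure the spread between these samples.

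Oligoadenylate synthetases are enzymes of the innate antiviral response. When they bind double-stranded RNA they join ATP into short oligoadenylates, a signal that limits the growth of viruses in the cell. Their genes are transcribed at a low level in most resting cells and are induced by interferon through STAT and IRF factors that bind interferon-stimulated response elements in promoters. In the mouse the Oas1 gene has been duplicated several times, and not every copy encodes an active synthetase. Oasl proteins carry ubiquitin-like domains behind the synthetase-like part.

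All 9 genes lie on chromosome 5 of the deposited annotation, whose build is not named. Oasl2 and Oasl1 stand side by side at 115034997 to 115075974 on the plus strand. The other 7 lie in a second group at 120868398 to 121059715, a stretch of 191318 bases that holds 10 family genes. The order along the chromosome is Oas2, Oas3, Oas1e, Oas1c, Oas1b, Oas1f, Oas1h, Oas1g, Oas1a and Oas1d. Oas1c on the minus strand and Oas1b on the plus strand lie head to head. The deposited identifiers are ENSMUSG00000052776 for Oas1a, ENSMUSG00000029605 for Oas1b, ENSMUSG00000001166 for Oas1c, ENSMUSG00000066861 for Oas1g and ENSMUSG00000001168 for Oas1h. They are ENSMUSG00000032690 for Oas2, ENSMUSG00000032661 for Oas3, ENSMUSG00000041827 for Oasl1 and ENSMUSG00000029561 for Oasl2.

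RefSeq promoter windows of build GRCm38.p6, each 300 bases long with 250 bases before the start of the gene and 50 after it, were found for 7 of the 9 genes. Each was searched on both strands for the core of the interferon-stimulated response element, GAAANNGAAA or its reverse complement TTTCNNTTTC, with overlapping matches counted. The core was present in 4 of the 7 windows, those of Oas1a, Oas1g, Oas3 and Oas1c, and in 3.44% of all 32851 windows of the same length. Those 4 windows are printed below with the match in capitals, together with the window of Oas1h, the member with the highest ratio to control, which holds no match. They lie at chr5:120907476-120907775 for Oas1a, chr5:120887564-120887863 for Oas1g, chr5:120777610-120777909 for Oas3 and chr5:120812465-120812764 for Oas1c, all on the minus strand, and at chr5:120861172-120861471 on the plus strand for Oas1h.
Oas1a: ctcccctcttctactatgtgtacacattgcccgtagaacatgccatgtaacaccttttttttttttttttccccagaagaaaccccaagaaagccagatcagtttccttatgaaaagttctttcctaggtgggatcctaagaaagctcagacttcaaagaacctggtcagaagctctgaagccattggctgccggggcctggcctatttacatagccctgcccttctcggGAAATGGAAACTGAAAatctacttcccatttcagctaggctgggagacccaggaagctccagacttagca
Oas1g: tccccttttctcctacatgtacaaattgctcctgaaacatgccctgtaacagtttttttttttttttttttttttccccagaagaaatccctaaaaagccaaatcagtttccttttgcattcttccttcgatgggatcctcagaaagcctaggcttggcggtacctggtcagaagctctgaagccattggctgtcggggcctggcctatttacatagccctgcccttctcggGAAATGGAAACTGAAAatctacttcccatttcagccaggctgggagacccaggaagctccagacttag
Oas3: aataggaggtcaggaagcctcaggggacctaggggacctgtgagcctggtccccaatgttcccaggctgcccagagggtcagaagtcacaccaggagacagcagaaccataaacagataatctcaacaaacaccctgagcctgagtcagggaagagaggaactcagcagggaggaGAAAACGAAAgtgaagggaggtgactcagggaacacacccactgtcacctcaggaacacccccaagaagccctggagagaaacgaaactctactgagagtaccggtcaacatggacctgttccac
Oas1c: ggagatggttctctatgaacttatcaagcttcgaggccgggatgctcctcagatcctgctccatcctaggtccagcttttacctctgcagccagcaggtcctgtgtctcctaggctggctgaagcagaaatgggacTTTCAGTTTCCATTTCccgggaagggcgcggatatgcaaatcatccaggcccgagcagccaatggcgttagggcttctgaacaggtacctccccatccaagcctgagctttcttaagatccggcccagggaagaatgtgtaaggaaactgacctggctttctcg
Oas1h: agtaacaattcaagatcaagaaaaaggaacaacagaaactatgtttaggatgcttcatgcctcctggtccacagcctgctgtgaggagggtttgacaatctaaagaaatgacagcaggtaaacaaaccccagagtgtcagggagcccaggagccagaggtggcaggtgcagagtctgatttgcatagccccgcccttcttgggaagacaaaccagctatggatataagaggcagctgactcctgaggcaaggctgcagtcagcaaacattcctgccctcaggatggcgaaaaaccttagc
In the Oas1a and Oas1g windows the capitals are 2 overlapping matches, GAAATGGAAA and GAAACTGAAA, which begin 20 and 14 bases before the start of Oas1a, and 18 and 12 bases before the start of Oas1g. These windows were identical at 261 bases, 87.0% of the window length. In Oas3 the single match GAAAACGAAA begins 75 bases before the start. In Oas1c the 2 overlapping matches are on the reverse strand, at 114 and 108 bases before the start. Read on the opposite strand, that of Oas1b, these capitals spell the same letters as those of Oas1a and Oas1g. The deposited starts, 120950579 for Oas1c and 120950700 for Oas1b, lie less than 250 bases apart. If RefSeq's starts are spaced alike, the Oas1c window also covers the start of Oas1b, which had no window of its own. Which of the 2 genes the element serves was not tested. The windows of Oasl1 and Oasl2 hold no match. The palindromic STAT element TTCNNNGAA was present in the window of Oas1a alone among the 7, as TTCAAAGAA at 98 bases before the start, and in 8.30% of all windows. A match describes the letters and shows no binding, and these letters being absent says nothing of elements outside the window.

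The libraries held 13902122 to 19139771 counts. Controls 1 to 3 had nearly the same counts, with a chi-square per degree of freedom between pairs of 1.72 to 1.92, against 12.9 to 147 in the other 15 pairs within groups. Control 4 stood apart from them, with 9.80% of its counts in hemoglobin genes against 2.45% to 2.49% in controls 1 to 3. The spread within the control group is therefore mostly the distance between control 4 and 3 nearly alike libraries. A gene is called higher or lower than control below only where its Benjamini-Hochberg adjusted p in edgeR's quasi-likelihood test over all 12549 genes tested was under 0.05, and remained so with the counts of controls 1 to 3 summed into 1 library. The labelled tissue was checked against markers, and all erythroid, B lineage, neutrophil and monocyte markers listed were detected in the control libraries.

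Against control, the family was higher in the model libraries as a group, with Oas1c as the exception. Of the 9 members 8 were past the threshold as higher in the fit of 12 libraries, beside 23.2% of all genes tested, and 8 also with controls 1 to 3 summed, beside 17.7%. In the same 8 members the lowest model library lay above the highest control library, beside 23.3% of all genes. The median log2 change of the 9 members was 1.77, beside -0.00 over all genes. All 9 members passed the filter on low counts, Oas1h only through its cornus and model libraries. Because these contrasts were in view when the family was chosen, nothing is read from the distance between the members and all genes. In bulk RNA, fewer cells of a type and less RNA per cell cannot be told apart.

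**Figure D1:**
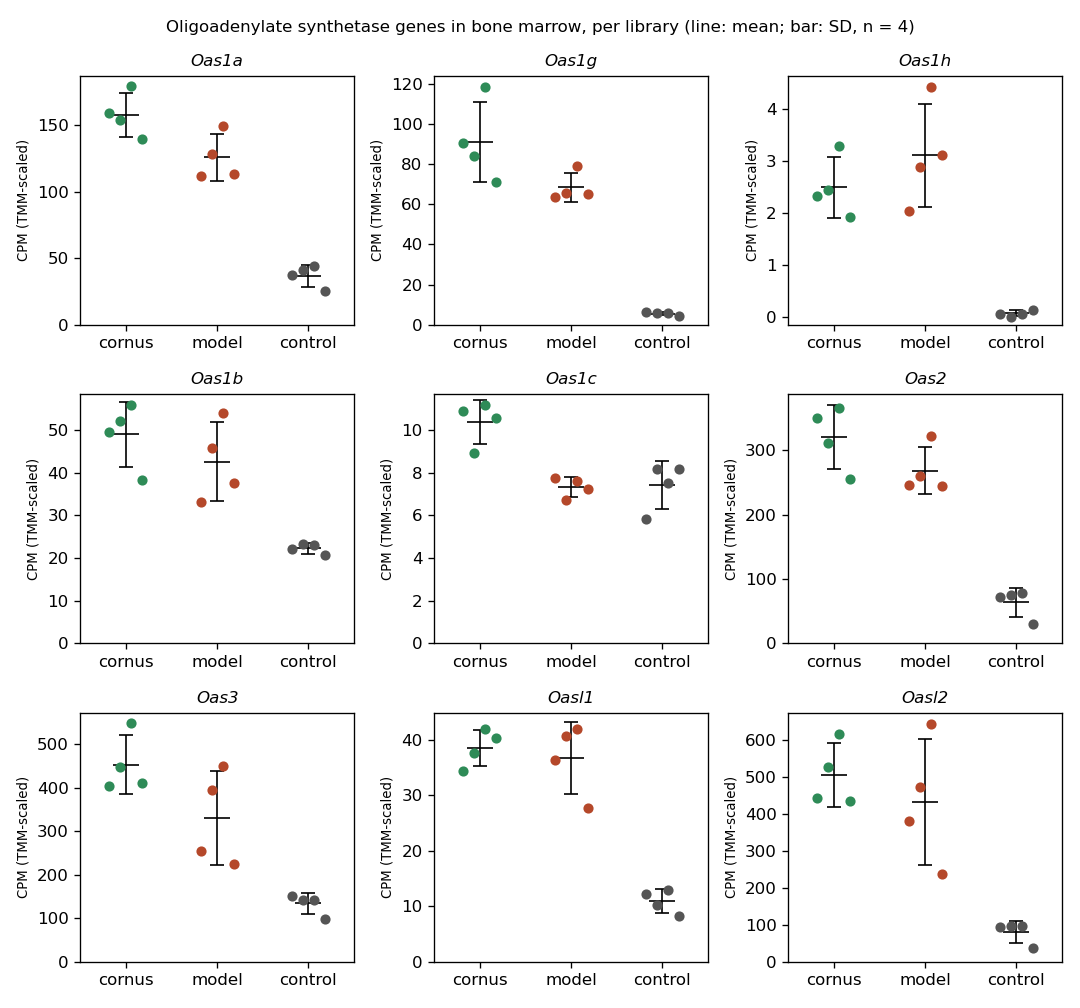
Each panel plots the TMM-scaled CPM of 1 gene on a linear axis, with a dot for each of 4 libraries of the cornus, model and control groups, a line at the mean and a bar of 1 SD. Model and cornus dots lie above all control dots in 8 panels, and in the Oas1c panel the cornus dots alone lie above the others (8.92 to 11.2 CPM, against 6.72 to 7.78 in model and 5.81 to 8.19 in control libraries).

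Oas1a encodes an active synthetase and was the most highly expressed member of the Oas1 group. It had 159, 154, 179 and 139 CPM in cornus libraries 1 to 4, 112, 128, 149 and 113 CPM in model libraries 1 to 4, and 37.1, 41.1, 43.9 and 25.3 CPM in control libraries 1 to 4. CPM here is the count scaled to library size with edgeR's TMM factors. The log2 change against control was 1.77 ± 0.16 (SE) in model and 2.10 ± 0.16 in cornus libraries. The model and control libraries did not overlap, while 3 of the 4 cornus libraries lay above the highest model library, with a log2 change of 0.33 ± 0.16 in cornus against model.

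Oas1g, the closest copy of Oas1a and also an active synthetase, had a larger ratio to control. Its CPM was 90.6, 83.9, 118 and 71.1 in cornus libraries, 63.7, 65.8, 79.1 and 64.9 in model libraries and 6.18, 5.74, 6.02 and 4.28 in control libraries. All control libraries lay far below the lowest model library. The mean CPM in model libraries was 12.3 times that in control libraries, and in cornus libraries 16.4 times. In cornus against model the log2 change was 0.41 ± 0.15, and 3 of 4 cornus libraries lay above the highest model library.

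Reads of Oas1a and Oas1g can be confused, because the coding sequences of the pair are 97.0% identical over 1101 bases, whereas the other 9 pairs among the 5 Oas1 members are 73.5% to 81.0% identical. Of all 50-base stretches of the longest Oas1a transcript in GENCODE M21, 57.6% also occur in another gene, chiefly Oas1g, and 32.4% of all 150-base stretches do. For Oas1g the shares were 54.7% and 30.1%. How the counter treated reads that map to both is not given in the sources used here, so the split of reads between this pair is uncertain. With the counts of the 5 Oas1 members summed, the log2 change against control was 1.78 in the model group, and it was 0.33 in cornus against model.

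A ratio computed within each library shows the uneven change of the pair. Oas1g FPKM over Oas1a FPKM, with FPKM the length-scaled value that the authors deposited, was 0.459, 0.440, 0.531 and 0.412 in cornus libraries, 0.459, 0.413, 0.427 and 0.463 in model libraries, and 0.134, 0.112, 0.111 and 0.136 in control libraries. The cornus and model ranges overlapped, and every control library lay below both. This ratio and those below were chosen after their values were seen.

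Oas1h, another Oas1 copy, was nearly undetected in control libraries. Its counts were 30, 34, 49 and 37 in cornus libraries, 33, 42, 65 and 62 in model libraries, and 1, 0, 1 and 2 in control libraries. The summed counts were 150 in cornus, 202 in model and 4 in control libraries. Scaled for library size, the summed model count was 51.6 times the control count, with a 95% exact binomial interval of 19.9 to 191 that covers counting error only. For cornus against control the ratio was 38.0 (14.5 to 141), and for cornus against model it was 0.735 (0.591 to 0.913). These intervals leave out the spread between libraries. With that spread in the fit, the log2 change in cornus against model was -0.32 ± 0.31 and not past the threshold. All 4 cornus libraries lay within or below the model range on the CPM scale, at 1.92 to 3.30 CPM against 2.04 to 4.42 CPM in model libraries. The fitted log2 change of 5.43 ± 0.49 in model against control depends on the prior count, since so few reads were counted in control libraries. Of the 50-base stretches of Oas1h, 0.484% also occur in another gene.

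Oas1b is the mouse flavivirus resistance gene, whose product is cut short by a stop codon in most laboratory strains. It had the lowest change among the members higher in the model libraries. Its CPM was 49.6, 52.1, 55.9 and 38.3 in cornus libraries, 33.2, 45.7, 54.1 and 37.5 in model libraries, and 22.0, 23.3, 23.0 and 20.6 in control libraries. The log2 change was 0.94 ± 0.15 in model against control, with no overlap, and 0.20 ± 0.15 in cornus against model, where the ranges overlapped. Relative to Oas1a in the same library, its FPKM was 0.260 to 0.321 in cornus, 0.281 to 0.343 in model and 0.496 to 0.770 in control libraries.

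Oas1c, the neighbour that lies head to head with Oas1b, did not share the pattern. Its CPM was 10.9, 8.92, 11.2 and 10.6 in cornus libraries, 7.78, 6.72, 7.61 and 7.23 in model libraries, and 5.81, 8.16, 7.51 and 8.19 in control libraries. Model libraries lay within the control range, with a log2 change of -0.02 ± 0.14. Every cornus library lay above every model library, with a log2 change of 0.50 ± 0.14, and above every control library, with a log2 change of 0.49 ± 0.14. The cornus against model difference missed the threshold in edgeR and passed it in DESeq2. The cornus against control difference missed it once controls 1 to 3 were summed. On the FPKM scale the mean in cornus libraries was 1.31 times that in model libraries, against 1.42 times on the CPM scale. An antisense gene, Gm43069, covers 9.44% of the exon bases of Oas1c, and the strand setting of the counting is not given in the sources used here. Reads of Oas1c can also be confused with those of relatives outside the 9 members. Of the 50-base stretches of its longest GENCODE M21 transcript, 16.3% also occur in another gene, and 4.47% of the 100-base stretches do. The gene sharing most of them is Oas1e, whose coding sequence is 86.9% identical to that of Oas1c.

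Oas2 and Oas3 encode larger synthetases with repeated synthetase domains. Oas2 had 350, 311, 366 and 255 CPM in cornus libraries, 246, 261, 322 and 245 CPM in model libraries, and 71.0, 74.9, 78.2 and 29.9 CPM in control libraries. Control 4 lay far below the other controls, and all controls lay below the model range. In model against control the log2 change was 2.08 ± 0.25 and it was 0.26 ± 0.24 in cornus against model.

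Oas3 had 405, 447, 550 and 410 CPM in cornus libraries, 254, 395, 450 and 226 CPM in model libraries, and 152, 143, 142 and 98.5 CPM in control libraries. Model libraries 1 and 4 were low and libraries 2 and 3 high, so the model range was wide and reached the cornus range. In model against control the log2 change was 1.31 ± 0.22 and it was 0.45 ± 0.22 in cornus against model. Oas2 FPKM over Oas3 FPKM was 0.988 to 1.37 in cornus, 1.05 to 1.72 in model and 0.483 to 0.873 in control libraries. The ratio was thus higher in every model than in every control library. Which gene exceeds the other depends on the lengths used. Those are 4451 and 7069 bases as deposited, and 3961 and 4720 in the longest GENCODE M21 transcripts.

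The Oas-like genes showed the same direction. Oasl1, which in the mouse restrains translation of the interferon regulator Irf7, had 34.4, 37.7, 41.9 and 40.3 CPM in cornus libraries, 36.3, 40.7, 42.1 and 27.7 CPM in model libraries, and 12.2, 10.2, 12.95 and 8.19 CPM in control libraries. The cornus libraries all lay inside the model range, and the log2 change was 1.75 ± 0.16 in model against control, while cornus against model gave 0.07 ± 0.15. Oasl2, which in the mouse keeps synthetase activity, had 441, 526, 617 and 434 CPM in cornus libraries, 380, 472, 643 and 236 CPM in model libraries, and 93.9, 97.2, 95.6 and 36.3 CPM in control libraries. It had the widest spread of log2 CPM among the members in the model and control groups, with an SD of 0.61 over the model libraries, beside a median of 0.20 over all genes, and 0.70 over the control libraries. In model against control the log2 change was 2.42 ± 0.34 and it was 0.22 ± 0.32 in cornus against model.

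**Figure D2:**
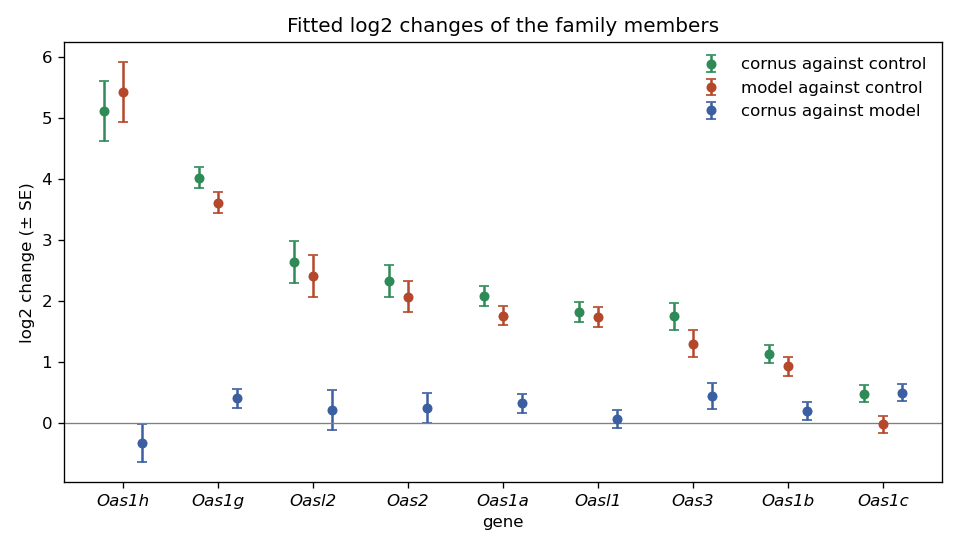
Fitted log2 changes with bars of 1 SE are plotted for each gene on the horizontal axis, in cornus against control, model against control and cornus against model. Changes against control run from -0.02 (Oas1c, model) to 5.43 (Oas1h, model), while those of cornus against model lie between -0.32 and 0.50.

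Cornus against model, the comparison of the nanoparticle group with the CTX group, gave no member past the threshold in edgeR, beside 0.151% of all genes in either direction. DESeq2 called 1 member, Oas1c. At an unadjusted p under 0.05 edgeR listed 2 of 9 members, beside 20.8% of all genes. Groups did not overlap for 1 of 9 members as higher, Oas1c, beside 6.06% of all genes. The median log2 change of the members was 0.26, beside -0.02 over all genes, with 8 of the 9 above 0 and Oas1h at -0.32 ± 0.31. On the FPKM scale, which divides by all counted reads of a library, the ratio of cornus to model means was lower than on the CPM scale for each member. It was 1.16 on FPKM against 1.25 on CPM for Oas1a, 0.976 against 1.05 for Oasl1, and 0.742 against 0.802 for Oas1h. Several of these differences moved with 1 library. The log2 change of Oasl2 was 0.04 without model 4 and 0.47 without model 3, and that of Oas1b 0.11 without model 1 and 0.33 without model 3. For Oas1g it was 0.25 without cornus 3 and 0.51 without cornus 4, for Oas1h -0.49 without cornus 3 and -0.12 without model 3, and for Oasl1 -0.02 without model 4 and 0.14 without model 3.

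Cornus against control uses the same control libraries as model against control, so the changes of both are given side by side and not correlated. All 9 members were past the threshold as higher with 12 libraries, beside 24.0% of all genes, and 8 of 9 also with controls 1 to 3 summed, beside 18.6%. The groups did not overlap for 9 of 9 members, beside 24.2% of all genes. For Oas1g the log2 change against control was 4.03 ± 0.18 in cornus and 3.62 ± 0.17 in model libraries, and for Oas1h it was 5.11 ± 0.49 in cornus and 5.43 ± 0.49 in model libraries. Oas2 changed by 2.33 ± 0.26 in cornus and 2.08 ± 0.25 in model libraries. Oas3 changed by 1.76 ± 0.22 in cornus and 1.31 ± 0.22 in model libraries, and Oas1b by 1.14 ± 0.15 in cornus and 0.94 ± 0.15 in model libraries. Apart from Oas1h, the fitted change was larger in cornus than in model libraries for each of these genes. For the Oas-like genes the change was 1.83 ± 0.16 in cornus and 1.75 ± 0.16 in model libraries for Oasl1, and 2.64 ± 0.34 in cornus and 2.42 ± 0.34 in model libraries for Oasl2.

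Levels are compared between genes per length, on the deposited FPKM, so their order depends on the deposited gene lengths. These lengths exceed the longest GENCODE M21 transcript unevenly. They are 6374 against 3123 bases for Oasl2 and 7069 against 4720 for Oas3, but 1885 in both for Oas1a. The uncertain split of reads between Oas1a and Oas1g applies here too. In cornus libraries the means ran from Oas1a (80.8 FPKM) through Oasl2 (76.6), Oas2 (69.5) and Oas3 (62.0), neighbours whose ranges overlapped, to Oas1g (37.5), Oas1b (23.7), Oasl1 (14.3), Oas1c (4.18) and Oas1h (1.41), each apart from the next. In model libraries the first 4 were Oasl2 (70.4), Oas1a (69.7), Oas2 (63.1) and Oas3 (48.7), again overlapping, followed by Oas1g (30.6), Oas1b (22.3), Oasl1 (14.7), Oas1c (3.20) and Oas1h (1.90), each apart from the next. In control libraries the order was Oas1a (19.3), Oas3 (18.7), Oas2 (14.1), Oasl2 (12.6), Oas1b (11.0), Oasl1 (4.12), Oas1c (3.04), Oas1g (2.34) and Oas1h (0.0384). There the first 5 overlapped from neighbour to neighbour, as did Oasl1, Oas1c and Oas1g, and Oas1h lay apart. Oas1g thus stood above Oas1b without overlap in the cornus and model groups, and in the control group it lay below Oas1b, with a range that overlapped that of Oas1c.

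Summed over the 9 members, FPKM was 346, 379, 425 and 331 in cornus libraries, 294, 336, 400 and 267 in model libraries, and 92.5, 94.9, 98.0 and 55.7 in control libraries. The means were 370 ± 41.6 in cornus, 325 ± 57.9 in model and 85.3 ± 19.8 in control libraries (SD, n = 4 each). The make-up of the sum, which rests on the same deposited gene lengths, differed as well. Oas1g held 9.27% to 11.1% of it in cornus, 8.47% to 11.3% in model and 2.57% to 3.12% in control libraries. Oas1a held nearly the same share in all groups, at 21.0% to 22.7% in cornus, 19.9% to 24.4% in model and 21.3% to 23.7% in control libraries.

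**Figure D3:**
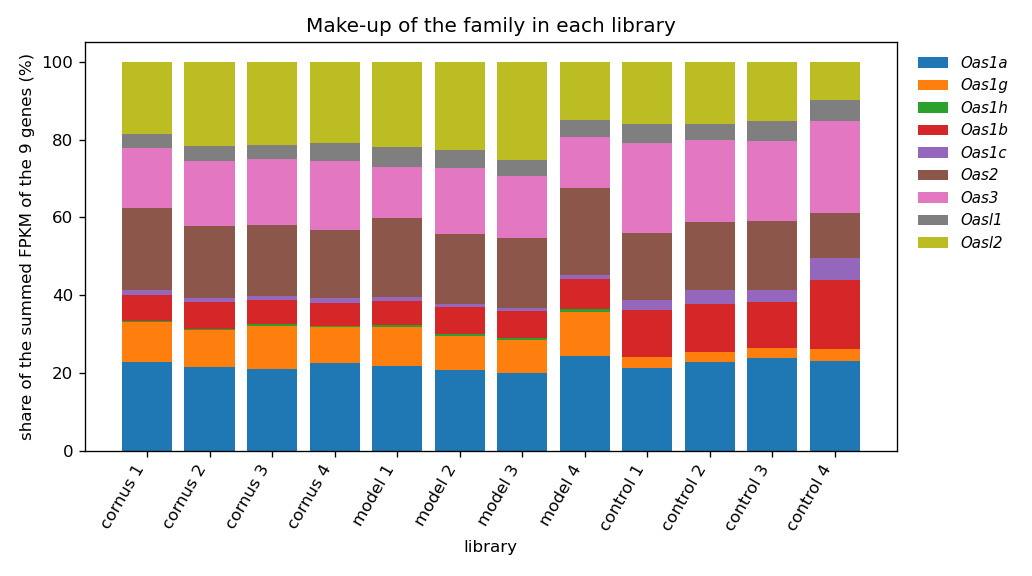
Stacked bars show the share of the summed FPKM of the 9 genes (%) that each gene held in each of 12 libraries, with cornus, model and control libraries in turn. The Oas1g band takes 8.47% to 11.3% in cornus and model libraries and 2.57% to 3.12% in controls, where the Oas1b band is wider (11.8% to 17.6%, against 5.86% to 7.66%).

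Most members lay high or low in the same libraries, with Oas1c as the exception. In cornus 3, model 3 and control 3 all 9 members lay above their group's mean log2 CPM, and in model 4 it was 1 of 9. In control 4 the members' median lay 0.51 below the mean of controls 1 to 3 on the log2 scale, with 7 of 9 lower and Oas1c and Oas1h above. The median over all genes lay 0.03 above. Oas1h was near the floor there, with 2 counts in control 4 and 1, 0 and 1 in controls 1 to 3. The largest such differences were -1.40 for Oasl2, with 36.3 CPM in control 4 against a mean of 95.6 CPM in controls 1 to 3, and -1.32 for Oas2, with 29.9 against 74.7 CPM. Over the 12 libraries the 36 pairs of members had a median Pearson r of 0.95 between log2 CPM values, from 0.37 to 0.99, and with group means subtracted a median of 0.59, from -0.32 to 0.95. With group means subtracted, r between Oas1c and the other 8 members ran from -0.32 to 0.03, and r of Oas1h was -0.20 with Oas2 and -0.09 with Oasl2. With control 4 left out of these correlations, Oas1c gave -0.17 to 0.21, and Oas1h gave 0.34 with Oas2 and 0.31 with Oasl2. The negative r of Oas1h with Oas2 and Oasl2 thus rested on control 4, where Oas1h had 2 counts. With Oas1c the r of Oas1h went the other way, from 0.03 to -0.14. These points share libraries and depth.

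Monocyte markers were set beside the family sum, without a measure of association. The 6 markers (Ly6c2, Ccr2, Csf1r, F13a1, Cx3cr1, Ms4a6c) summed to 3379, 4316, 3981 and 3341 CPM in cornus libraries, 3838, 2846, 4667 and 2147 CPM in model libraries, and 2000, 2059, 2044 and 602 CPM in control libraries. All 6 were detected. In model against control 2 of 6 were higher and 0 lower, beside 17.7% and 15.8% of all genes. Their log2 changes ran from -0.78 to 1.90, with a median of 0.71. In 3 of 3 groups the library with the lowest family sum, number 4, also had the lowest monocyte sum. Other libraries were ordered differently. Model 2 had a higher family sum than model 1 (336 against 294 FPKM) and a lower monocyte sum. Cornus 3 had the highest family sum of its group, while cornus 2 had the highest monocyte sum. The part of monocyte numbers in the family's levels was not tested. Model 4, with a monocyte sum of 2147 CPM, had a family sum of 267 FPKM, while controls 1 to 3, with monocyte sums of 2000 to 2059 CPM, had family sums of 92.5 to 98.0 FPKM.

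**Figure D4:**
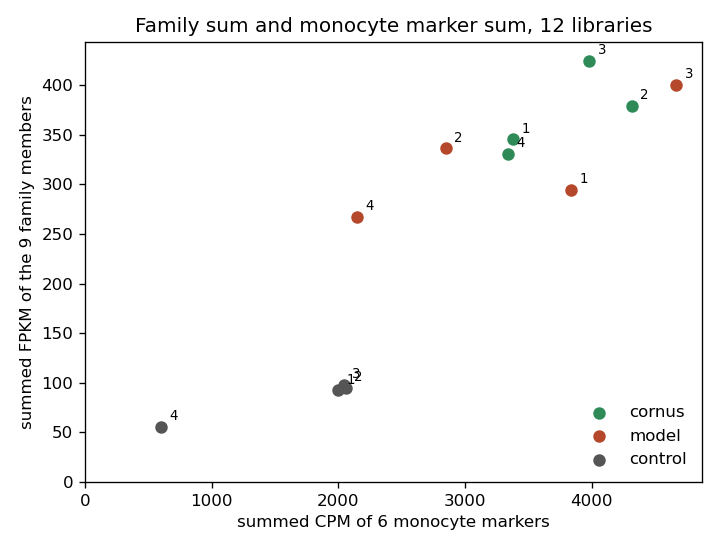
Each dot is 1 of 12 libraries, numbered by replicate, with the summed CPM of 6 monocyte markers on the horizontal axis and the summed FPKM of the 9 family members on the vertical axis. Model 4 lies at nearly the same marker sum as controls 1 to 3 (2147 against 2000 to 2059 CPM) and above them in the family sum (267 against 92.5 to 98.0 FPKM).

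Markers of other cell types were summed in the same way. Summed marker levels were 10.6 to 91.6 CPM in cornus, 45.4 to 68.7 in model and 771 to 1759 in control libraries for 6 B lineage markers. For 6 eosinophil markers they were 110 to 165 CPM in cornus, 94.3 to 679 in model and 3508 to 5002 in control libraries, and for 7 erythroid markers 255 to 16155 CPM in cornus, 299 to 9737 in model and 25149 to 104283 in control libraries. The 10 neutrophil markers gave 58638 to 88634 CPM in cornus, 33965 to 60049 in model and 49410 to 76627 in control libraries. Model and control ranges of these sums overlapped for the neutrophil markers and for the lists that follow, but single markers differed. In model against control, 4 of 7 T and NK cell markers were lower and 0 higher (median log2 change -1.25). For macrophage markers it was 4 of 6 lower and 0 higher (-1.08). Of the neutrophil markers 3 were higher and 3 lower (-0.61), and of the plasmacytoid dendritic cell markers 0 were higher and 1 lower (-0.71). All genes gave 17.7% higher and 15.8% lower. The 6 plasmacytoid dendritic cell markers gave 122 to 227 CPM in cornus, 194 to 247 in model and 228 to 244 in control libraries. The 7 T and NK cell markers gave 92.4 to 174 CPM in cornus, 114 to 153 in model and 147 to 153 in control libraries, and the 6 macrophage markers 156 to 244 in cornus, 148 to 229 in model and 213 to 273 in control libraries. One of the plasmacytoid list, Bst2, is itself induced by interferon and is also in the antiviral list below. No marker was at 0 in all libraries of a group, and the part of these cell types in the family's levels was not tested.

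Among genes that act on the oligoadenylate signal, 3 are described here. Of these, 0 were higher and 1 was lower in model than control libraries, beside 17.7% and 15.8% of all genes. Akap7, whose product can degrade oligoadenylates, was the lower one, with a log2 change of -0.70 ± 0.17. Abce1, an ATP-binding protein that also recycles ribosomes, had a log2 change of 0.42 ± 0.11 and Pde12, a phosphodiesterase that degrades oligoadenylates, one of 0.31 ± 0.09, both lost as calls with controls 1 to 3 summed.

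Upstream and beside the family, 9 of 15 other nucleic acid sensors and adaptors were higher and 0 lower in model than control libraries, beside 17.7% and 15.8% of all genes, with a median log2 change of 1.22. Among these were Ifih1, the RNA sensor MDA5 (2.23 ± 0.26), Eif2ak2, the RNA-activated kinase PKR (2.01 ± 0.15), Dhx58, the RNA helicase LGP2 (1.57 ± 0.18), and Cgas, the DNA sensor (1.52 ± 0.17). Of 12 interferon receptor and signalling genes, 3 were higher and 2 lower, shares near the 17.7% and 15.8% of all genes. Stat2, part of the factor that binds the response element, was higher by 1.49 ± 0.28 and the kinase Jak2 by 0.67 ± 0.13, while the receptor chains Il10rb and Ifngr2 changed by -0.63 ± 0.08 and -0.44 ± 0.11.

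Of 7 IRF genes tested, 1 was higher and 2 lower, also beside 17.7% and 15.8% of all genes. Irf7, a main amplifier of interferon transcription, was higher by 1.46 ± 0.30, whereas Irf4, which B lineage cells use, had a log2 change of -3.08 ± 0.39 and Irf3 one of -0.80 ± 0.14. Irf1 averaged 77.6 ± 12.1 (SD) CPM in cornus, 150 ± 110 (SD) in model and 90.1 ± 4.07 (SD) in control libraries and was not past the threshold. Its model libraries ran from 60.4 to 311 CPM. None of 10 interferon genes had enough counts to be tested. Ifnb1, Ifna1, Ifna4, Ifna5, Ifnl2 and Ifnl3 had a count of 0 in all 12 libraries, and the highest count of any was 13, for Ifng in model 3. Since a count of 0 allows up to 3 counts, lower levels were not detectable at this depth.

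Of 31 tested genes in the list of other antiviral interferon-induced genes, 22 were higher and 1 lower in model than control libraries, beside 17.7% and 15.8% of all genes, with a median log2 change of 1.25. The changes named were Ifi44 (4.07 ± 0.37), Ifit1 (3.33 ± 0.39), Parp9 (1.39 ± 0.19) and the helicase gene Helz2 (1.10 ± 0.14). In cornus against model, edgeR called 0 genes in each of these lists, beside 0.151% of all genes. Against control, cornus libraries had 23 of 31 antiviral genes and 10 of 15 sensors higher, beside 18.6% of all genes.

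**Figure D5:**
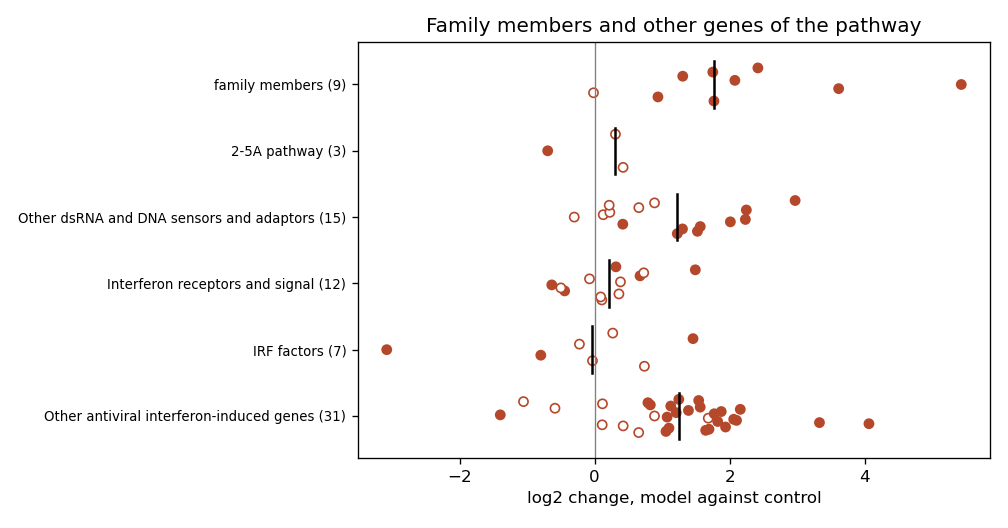
The log2 change in model against control is plotted for each tested gene of the family and of 5 pathway lists, with the number tested in brackets, and a black line marks each median. Filled dots were past the threshold also with controls 1 to 3 summed. The median is 1.77 for the family, 1.22 for the sensors and 1.25 for the antiviral genes, against 0.31 for the oligoadenylate pathway genes and 0.21 for the receptors and signal genes.

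The genes whose log2 CPM ran closest to the mean of the 9 members over the 12 libraries were Rnf213, a ubiquitin ligase (Pearson r of 0.994), Ankfy1, an endosomal protein (0.993), Smg1, a kinase of nonsense-mediated decay (0.989), Dhx58 (0.989) and Ifit1 (0.986). Next came Helz2 (0.985), Ice1 (0.985), Tnrc6a, which acts in microRNA silencing (0.985), Ccdc82 (0.984) and Numa1, a spindle protein (0.984). Their log2 changes in model against control ran from 0.34 ± 0.06 for Numa1 to 3.33 ± 0.39 for Ifit1. Likeness of this kind was common, since r was above 0.9 for 762 of 11628 genes, and for 79 genes with group means subtracted. With group means subtracted, r was 0.932 for Rnf213 and 0.497 for Numa1.

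Genes next to the family did not all share its direction. On the side of Oas2, Dtx1, a Notch pathway gene, had a log2 change of -5.02 ± 0.50 and Rasal1 one of -2.22 ± 0.52 in model against control, and beyond Oas1d, Rph3a had one of 0.54 ± 0.31 and Ptpn11 one of 0.37 ± 0.09. Beside Oasl1, 2210016L21Rik had a log2 change of -0.08 ± 0.13. Within the Oas1 stretch, Oas1d and Oas1f had at most 2 counts in any library and were not tested. Oas1e had 32 counts in cornus, 15 in model and 25 in control libraries.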

How the data were processed

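The authors deposited 1 table with a read count and an FPKM value per gene and sample for 21958 genes. Per the submitters' processing notes, reads were handled with fastp 0.22.0, HISAT2 2.1.0 and HTSeq 0.9.1; the genome build, strand setting, read length and treatment of reads that map to several genes are not given in the sources used here. Deposited FPKM equals the count scaled by the deposited gene length and by the summed counts of the sample. Per the labels' protocols, RNA was selected with poly-T beads and libraries were amplified by PCR, with no molecular identifiers mentioned. The binomial intervals cover counting error only and treat each read as independent. They can be too narrow where reads are PCR copies.

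Counts of all 12 samples were fitted with the quasi-likelihood test of edgeR 4.0.16 in R 4.3.3 (scaling by TMM, filterByExpr with a minimum count of 10, group as the only term, adjusted p under 0.05 over 12549 genes). Each standard error is the size of the log2 change divided by the root of its F value. CPM uses TMM-scaled library sizes, and log2 CPM a prior count of 2. The fit was tested on simulated data. The family members, the gene lists and the tests were chosen with earlier results of these data known. All members were named, with the genes of the oligoadenylate pathway list (1 is not reported here), up to 4 genes of each other list with the smallest p in model against control, and the 10 genes outside the family most like it, leaving out predicted genes and clone names. Neighbouring genes, ratios and cell markers stand outside this rule. Alternatives were other scalings and filters, DESeq2 1.42.0, limma 3.58.1 on log2(FPKM + 0.1), 2-group fits, a replicate block, summed controls and leaving out each library. No genome of the deposited build was used: coordinates of genes are as deposited, and promoter windows are RefSeq's on GRCm38.p6.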

Additional observations from a re-analysis of the deposited data

Results flagged for a closer look

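Of 27 sets of 4 libraries (9 members in 3 groups), 3 held a library far from the others by Dixon's criterion, which chance meets in about 1 in 20 sets. Oas1g had 79.1 CPM in model 3, a gap of 0.867 of the group's range. Oas2 had 29.9 CPM in control 4, with a gap of 0.851 of the range, and Oasl2 had 36.3 CPM in control 4, with a gap of 0.946 of the range. Controls 1 to 3 had nearly the same counts, which makes the remaining control stand out.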

How the results depend on the processing

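Of the 9 members, 8 were past the threshold as higher in model against control under each of 22 alternatives, and 9 in cornus against control under all of them except with controls 1 to 3 summed, where Oas1c was lost (8 members). In cornus against model, 0 members passed in edgeR and 1, Oas1c, with DESeq2. Leaving out 1 library at a time gave 0 to 1, the 1 being Oas1c without control 4. The number of all genes past the threshold in that comparison was 19 with 12 libraries and depended on the processing: 12 with no filter, 839 with DESeq2, 523 with limma on FPKM, 0 with only the 2 groups in the fit, 0 with controls 1 to 3 summed, and 0 to 1035 with 1 library left out, 1035 being without control 4. Nothing in the labels says that replicate numbers pair the samples, and the criterion of a correlation over 0.1 in every pair was not met: deviations of same-numbered samples correlated at -0.11 to 0.23, -0.06 to 0.45 and -0.14 to 0.29 in the 3 comparisons, and 2, 2 and 1 of 4 samples correlated best with their own number. As a hint from the data, the family sum had the same order by number in 3 of 3 groups, with number 4 lowest and number 3 highest. A fit with the replicate block called 0 genes and 0 members in cornus against model and the same number of members as without it in the other comparisons. The fitted change of Oas1h in model against control lay between 3.85 and 5.60 under alternatives that keep all libraries, and the log2 change of Oasl1 in cornus against model crossed 0 (-0.03 to 0.14 over all alternatives). In that comparison, leaving out 1 library moved Oasl2 between 0.04 and 0.47, Oas1b between 0.11 and 0.33 and Oas1g between 0.25 and 0.51. The cause of these shifts was not tested.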
